A study of Mus musculus with 5 samples.

Results

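The genes described here encode the contractile apparatus of fast skeletal muscle fibres and the proteins that fuel and control it. They were looked up by symbol in a table of 11194 genes, and 9 of the 10 named were there: Acta1, Tnnt3, Tnni2, Myl1, Mylpf, Ckm, Atp2a1, Casq1 and Srpk3. The other one, Tnnc2, was not analysed here. The samples were 5 immunoprecipitates made with an antibody to Staufen1, an RNA-binding protein, from skeletal muscle stem cells, and the RNA in each was sequenced. 3 came from mice labelled Stau+/+ (wild type, here WT 1 to 3) and 2 from mice labelled Stau-/- (Staufen knockout, here KO 1 and KO 2), and no treatment, age or further allele was given for either group. Neither an unprecipitated input library nor a control antibody was used here, so a count reflects both the amount of a transcript and its recovery. The antibody is directed at the product of the gene labelled as knocked out, so recovery may itself differ between the groups. The labels do not say whether libraries of one group came from separate mice.

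Muscle stem cells lie against the fibres that they repair and do not build sarcomeres while quiescent. In a fibre, actin and the troponin complex form the thin filament, and myosin with its light chains forms the thick filament. Calcium released from the sarcoplasmic reticulum acts on troponin to start contraction, a calcium pump returns it, and creatine kinase replenishes ATP. The genes were chosen by their CPM in these same libraries, where KO 2 stood out, so the levels below are a description and carry no test.

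The set fell into patterns that differed in the first library labelled knockout. For Acta1, Tnnt3, Tnni2, Myl1, Mylpf, Ckm and Atp2a1, the library labelled KO 2 stood above the other 4, while KO 1 lay within or below the wild type range. Casq1 and Srpk3 were higher than every wild type library in both libraries labelled knockout, as were 18.1% of all genes. The summed level of the 9 genes was 562.5, 522.8 and 620.9 CPM (counts scaled to a common library size by the TMM method) in WT 1 to 3, 419.0 CPM in KO 1 and 2557 CPM in KO 2. KO 2 was thus 4.50 times the wild type mean of 568.7 ± 49.4 CPM (SD, n = 3), and KO 1 was 0.737 times that mean. In the RNA of a bulk precipitate, more cells of a type, more RNA per cell and more recovery cannot be told apart.

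The libraries differed in depth in the same order as the groups. Totals were 33846391 to 105473455 counts in the wild type libraries, 9370244 in KO 1 and 3091302 in KO 2, which was the shallowest, so depth and genotype cannot be told apart. Stau1 itself, the targeted gene, had 104.3 to 126.8 CPM in WT 1 to 3 and 109.0 and 110.7 CPM in KO 1 and KO 2, a log2 fold change of 0.08 (SE 0.19, adjusted p = 0.847, edgeR quasi-likelihood test). The RNA of the targeted gene did not separate the groups, and each direction here rests on the labels. Pax7, which marks muscle stem cells, had 211.3, 263.2 and 241.5 CPM in WT 1 to 3 and 251.7 and 180.7 CPM in KO 1 and KO 2. Of 12 listed stem cell markers, 5 were past the adjusted threshold of 0.05 as higher in wild type (edgeR quasi-likelihood test), against 1.05% of all genes.

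The sequences upstream of these genes are shown because they share a feature that the choice of genes did not use. Windows of 250 bases before the start site were taken from RefSeq promoters (GRCm38.p6) and matched 7 of the 9 genes; Tnnt3 and Tnni2 had none in that table. Each of the 7 windows held CAGCTG, a palindromic form of the E-box bound by muscle basic helix-loop-helix factors such as MyoD, which reads the same on both strands. The same 6 letters were in 13.0% of 32851 windows of that length, and in 12.0% of the 11225 windows of genes in the count table. 4 are printed, for the most abundant gene, a light chain gene and the pair that was higher in both knockout libraries, with CAGCTG in capitals:
Acta1: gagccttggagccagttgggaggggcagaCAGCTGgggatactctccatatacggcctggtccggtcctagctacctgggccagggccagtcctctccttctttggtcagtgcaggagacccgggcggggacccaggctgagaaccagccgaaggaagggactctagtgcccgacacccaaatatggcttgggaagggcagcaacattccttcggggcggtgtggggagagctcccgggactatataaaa
Mylpf: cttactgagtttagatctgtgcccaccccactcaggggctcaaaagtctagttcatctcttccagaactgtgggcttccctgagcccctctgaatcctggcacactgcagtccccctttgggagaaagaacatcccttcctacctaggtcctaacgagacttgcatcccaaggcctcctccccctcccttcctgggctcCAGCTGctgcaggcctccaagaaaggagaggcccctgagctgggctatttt
Casq1: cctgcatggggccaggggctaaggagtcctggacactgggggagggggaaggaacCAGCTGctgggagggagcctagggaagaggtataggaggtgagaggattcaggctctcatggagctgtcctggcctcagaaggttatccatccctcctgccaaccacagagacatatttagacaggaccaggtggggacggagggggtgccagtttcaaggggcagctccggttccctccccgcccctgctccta
Srpk3: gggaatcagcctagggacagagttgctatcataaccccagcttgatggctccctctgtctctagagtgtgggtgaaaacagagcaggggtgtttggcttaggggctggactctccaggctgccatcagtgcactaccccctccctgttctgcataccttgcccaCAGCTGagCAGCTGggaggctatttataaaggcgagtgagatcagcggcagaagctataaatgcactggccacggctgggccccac

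These windows lie at chr8:123894776-123895025 (minus strand), chr7:127211358-127211607 (plus strand), chr1:172219896-172220145 (minus strand) and chrX:73774155-73774404 (plus strand) of that build. CAGCTG began 221 bases before the start of Acta1, 51 before Mylpf and 195 before Casq1, and Srpk3 had it at 86 and 78 bases. Mylpf and Atp2a1, at 55 bases, and Srpk3 therefore held it close to the start, and Acta1, Myl1 (224 bases), Ckm (249 bases) and Casq1 farther away. The only match of Ckm lay at the far edge of its window of 250 bases, so a slightly shorter window would not hold it. These distances are from the RefSeq start, which is not always that of the counted gene. On the minus strand, the Myl1 window, chr1:66945057-66945306, lies within the counted gene, which extends to 66945404. The Atp2a1 window, which begins at 126463074, overlaps the counted gene, which extends to 126463108. The general E-box CANNTG was in 7 of 7 windows and in 66.2% of all, and includes every CAGCTG. Another E-box form, CACCTG (or CAGGTG on the other strand), was in 1 of 7 and in 17.2% of all. A further string, which is not an E-box form, was also searched for. It was in 0 of 7 windows and in 3.2% of all, so not every string searched for was shared. A match is a string of letters in this window, and says nothing of binding in these cells. Myod1, which encodes MyoD, had 954, 800 and 672 CPM in WT 1 to 3. It had 300 CPM in KO 1 and 457 CPM in KO 2, and its part in these levels was not tested.

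Among the thin filament genes, Acta1, which encodes skeletal muscle alpha-actin (mm10 minus strand, chromosome 8, 123891767 to 123894736), was the most abundant. It had 299.4, 256.8 and 317.4 CPM in WT 1 to 3, 199.0 CPM in KO 1 and 1339.9 CPM in KO 2. KO 2 was 4.60 times the wild type mean and 4.22 times the next highest library, WT 3. The KO 1 value rested on 1900 counts, and its 95% exact Poisson interval, 190.1 to 208.1 CPM, lay below all 3 wild type libraries. Such intervals cover counting error only. Reads of near-identical actin genes can be shared by the counting. Cardiac alpha-actin, Actc1, had 2.85 to 5.81 CPM in wild type, 0.733 CPM in KO 1 and 9.23 CPM in KO 2, and smooth muscle alpha-actin, Acta2, had 444.7 to 622.7 CPM in wild type against 588.2 and 607.0 CPM in KO 1 and KO 2. Of these 3 actin genes, only Acta1 was over 2-fold above every other library in KO 2.

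The troponin genes of the same filament followed Acta1 in KO 2 and were level elsewhere. Tnnt3, the fast tropomyosin-binding subunit (mm10 plus strand, chromosome 7, 142498836 to 142516009), had 34.5, 36.1 and 33.1 CPM in WT 1 to 3, 33.0 CPM in KO 1 and 132.3 CPM in KO 2. Tnni2, the fast inhibitory subunit (mm10 plus strand, chromosome 7, 142441808 to 142444410), had 34.6, 32.9 and 25.5 CPM in wild type, 26.6 CPM in KO 1 and 132.7 CPM in KO 2. KO 1 fell within the wild type range for Tnni2 and just under it for Tnnt3, where its interval of 29.4 to 36.8 CPM overlapped that range. KO 2 was 3.83 and 4.28 times the wild type mean. Tnnt3 overlaps the noncoding gene Prr33 in RefSeq, and whether counting used strand is not given in the sources used here.

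The thick filament was represented by a pair of fast light chains, which were the most alike in profile. Myl1, an essential light chain gene (mm10 minus strand, chromosome 1, 66924295 to 66945404), had 53.2, 55.5 and 55.2 CPM in WT 1 to 3, 47.1 CPM in KO 1 and 352.2 CPM in KO 2. Its wild type libraries agreed to 2.24% of their mean (SD), the tightest of the 9. Mylpf, the phosphorylatable regulatory light chain (mm10 plus strand, chromosome 7, 127211608 to 127214298), had 18.0, 21.3 and 21.6 CPM in wild type, 20.1 CPM in KO 1 and 130.7 CPM in KO 2. The KO 2 library was 6.45 times the wild type mean for Myl1 and 6.44 times for Mylpf, and KO 1 was 0.863 and 0.990 times. In RefSeq, Mylpf overlaps Septin1, whose own level was 4.57 to 5.65 CPM in wild type and 6.28 and 6.68 CPM in KO 1 and KO 2.

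Ckm, the muscle creatine kinase (mm10 plus strand, chromosome 7, 19411094 to 19421583), had 50.8, 40.9 and 72.9 CPM in WT 1 to 3, 31.4 CPM in KO 1 and 228.1 CPM in KO 2. KO 2 was again the highest, at 4.16 times the wild type mean, and KO 1 the lowest, at 0.573 times. The KO 1 interval, 28.0 to 35.2 CPM, lay below the lowest wild type library. Ckm overlaps the noncoding gene A930016O22Rik.

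The calcium handling genes diverged from each other. Atp2a1, the fast sarcoplasmic reticulum calcium pump SERCA1 (mm10 minus strand, chromosome 7, 126445858 to 126463108), had 65.6, 70.6 and 87.4 CPM in WT 1 to 3, 33.7 CPM in KO 1 and 184.8 CPM in KO 2. It had the smallest step up in KO 2, 2.48 times the wild type mean, and the lowest KO 1 value relative to wild type, 0.453 times. It overlaps Rabep2, which had 16.5 to 26.6 CPM in wild type and 28.1 and 19.7 CPM in KO 1 and KO 2. Casq1, the calsequestrin that buffers calcium inside the reticulum (mm10 minus strand, chromosome 1, 172209894 to 172219868), had 4.72, 5.26 and 3.38 CPM in wild type, 14.1 CPM in KO 1 and 32.1 CPM in KO 2. Both libraries labelled knockout were above all wild type libraries, KO 1 by 3.17 times and KO 2 by 7.21 times the wild type mean. Casq1 overlaps the noncoding gene Gm17224.

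Srpk3, a kinase of SR proteins that is enriched in muscle (mm10 plus strand, chromosome X, 73774405 to 73778925), had 1.65, 3.56 and 4.42 CPM in WT 1 to 3, 13.9 CPM in KO 1 and 23.9 CPM in KO 2. The groups did not overlap: KO 1 was 4.34 times and KO 2 7.43 times the wild type mean. These values rested on few counts, 117 to 314 in wild type, 133 in KO 1 and 75 in KO 2, with intervals of 11.7 to 16.5 CPM in KO 1 and 18.8 to 29.9 CPM in KO 2. Its wild type libraries also differed most among themselves, with an SD of 44.1% of their mean.

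**Figure D1:**
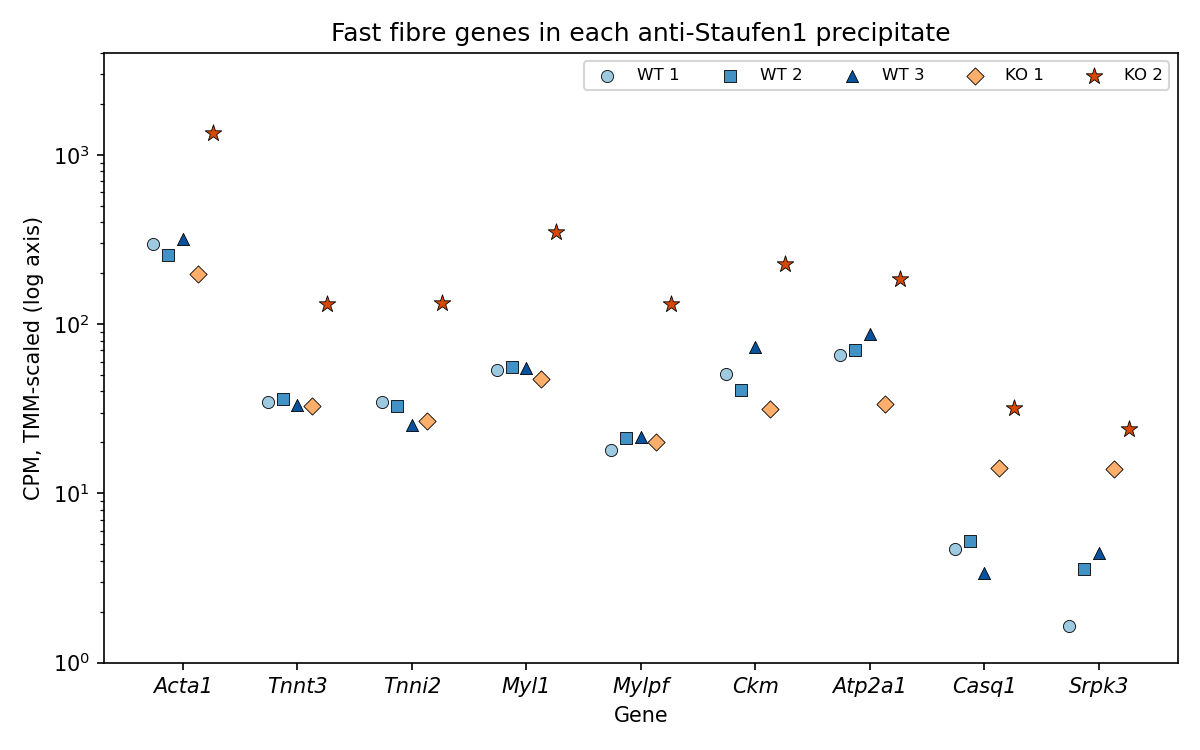
Level of each of the 9 genes in each library, in TMM-scaled CPM on a log axis; circles, squares and triangles are WT 1 to 3, diamonds KO 1 and stars KO 2, with 1 point per library. KO 2 is the highest point for all 9 genes, and KO 1 lies above the wild type points for Casq1 and Srpk3 but not for the other 7.

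Counted over the set, KO 2 was the highest library for 9 of 9 genes, against 26.5% of all genes, and more than 2-fold above each other library for 8 of 9, against 1.41% of all genes. The exception was Srpk3, at 1.71 times KO 1. KO 1 intervals lay below all wild type libraries for 4 genes (Acta1, Ckm, Myl1 and Atp2a1), overlapped the wild type range for 3 (Mylpf, Tnnt3 and Tnni2) and lay above it for Casq1 and Srpk3. KO 1 was more than 2-fold above each other library for 0 of 9, against 0.831% of all genes. Both libraries labelled knockout exceeded all wild type libraries for 2 of 9 genes, against 18.1% of all genes. In the fit over all genes, the same 2 were past the adjusted threshold of 0.05 as higher in knockout (edgeR quasi-likelihood test), against 1% of all genes. The number of the 9 past that threshold was 0 with limma-voom, 0 without WT 1 and 1, Srpk3, without WT 3. In these fits 14, 40 and 23 of all genes passed as higher in knockout, in that order. The number of the 9 was 4 with all libraries thinned to the depth of KO 2 and 7 with replicate number blocked. There 138 and 324 of all genes passed as higher in knockout, against 112 in the main fit. The choice of genes used this contrast, so these counts are not read further. The fits without KO 1 or without KO 2 leave 1 library labelled knockout, so only their effect sizes are given here. The log2 fold changes, wild type over knockout, ran from -0.52 for Atp2a1 to -2.54 for Srpk3, with SE between 0.39 and 0.51 and a median of -1.40, beside a median of 0 over all genes. Without KO 2 the median was 0.21 and the values of the 7 genes other than Casq1 and Srpk3 turned positive, from 0.01 for Mylpf to 1.14 for Atp2a1, while those of Casq1 and Srpk3 were -1.67 and -2.12. Without KO 1 the median was -2.20.

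Casq1 and Srpk3 aside, the make-up of the summed signal changed far less than its size. Acta1 made up 53.2%, 49.1% and 51.1% of the summed CPM in WT 1 to 3, 47.5% in KO 1 and 52.4% in KO 2, although the sum itself was 6.10 times as high in KO 2 as in KO 1. The shares of Ckm, Myl1, Mylpf, Tnnt3 and Tnni2 varied by 1.52 to 1.60 times between their lowest and highest library. Atp2a1 varied by 1.95 times, from 14.1% in WT 3 down to 7.23% in KO 2. Casq1 and Srpk3 stood apart, with shares that varied by 6.20 and 11.3 times. Both had their largest share in KO 1, where Casq1 made up 3.37% and Srpk3 3.32%, against at most 1.01% and 0.712% in the wild type libraries.

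**Figure D2:**
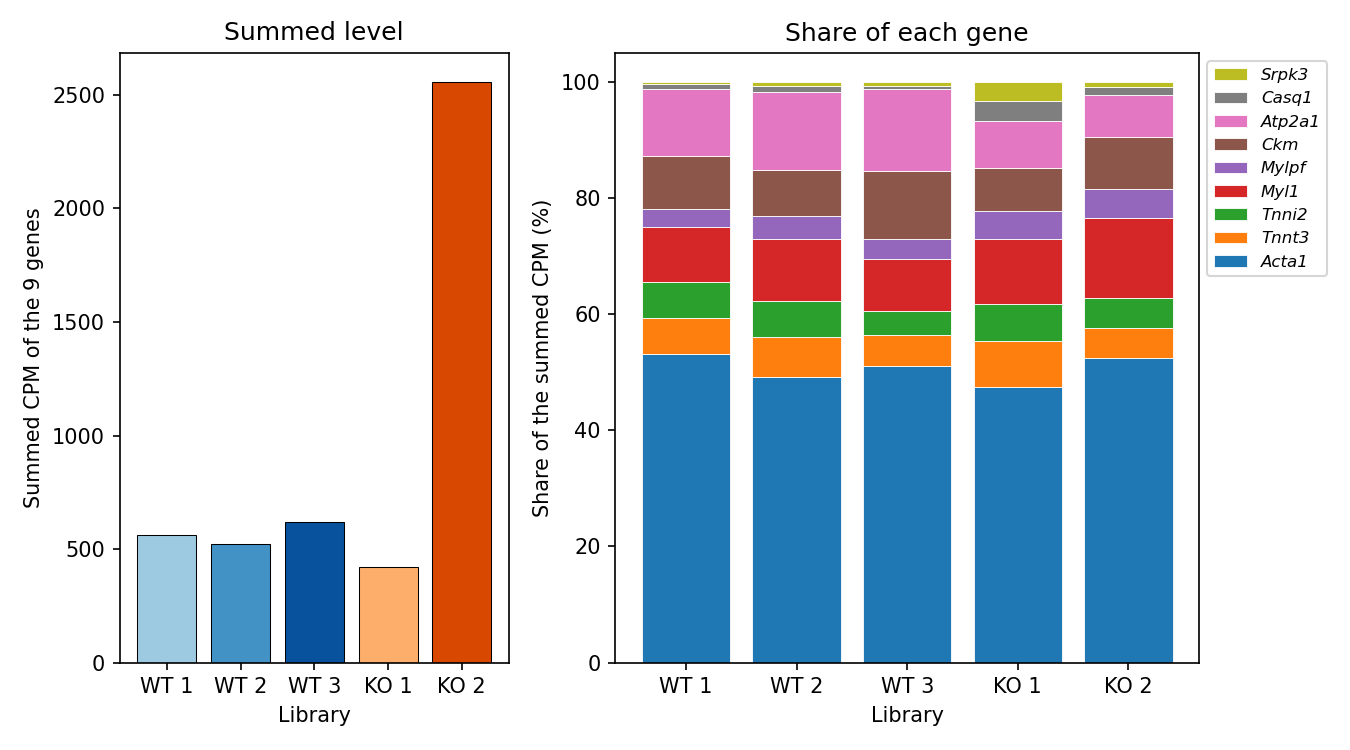
Left, summed CPM of the 9 genes in each library; right, the share of that sum (in %) taken by each gene, with 1 bar per library and colours in the order of the legend. The KO 2 bar reaches 2557 CPM, against 419.0 to 620.9 CPM in the other 4, while Acta1 takes between 47.5% and 53.2% in all 5.

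Levels were also compared between genes, per kilobase of exon. In wild type, Acta1 had 203.2 ± 21.7 CPM per kilobase (SD, n = 3), followed by Ckm at 38.8 ± 11.6, Myl1 at 30.8 ± 0.691, Tnnt3 at 24.9 ± 1.06, Mylpf at 22.9 ± 2.24, Atp2a1 at 21.4 ± 3.28, Tnni2 at 20.7 ± 3.24, Casq1 at 2.28 ± 0.496 and Srpk3 at 1.15 ± 0.509 CPM per kilobase. The wild type libraries of Acta1 and Ckm, Myl1 and Tnnt3, Tnni2 and Casq1, and Casq1 and Srpk3 did not overlap, whereas Ckm and Myl1, and each neighbouring pair from Tnnt3 through Mylpf and Atp2a1 to Tnni2, overlapped. In KO 2 the order of the same 9 genes began with Acta1 (935.0 CPM per kilobase), Myl1 (198.8) and Ckm (161.2) and ended with Atp2a1 (53.1), Casq1 (16.5) and Srpk3 (8.57). The last 3 places were held by the same genes in KO 1, at 9.68, 7.25 and 5.00 CPM per kilobase.

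The rest of the fibre programme was looked up in 6 lists of 97 other genes, of which 62 were in the table. None of the 62 was past the adjusted threshold as higher in knockout, against 1% of all genes, and 1 was higher in wild type, against 1.05% (edgeR quasi-likelihood test); 22 of the 62 had an unadjusted p under 0.05, in either direction, against 20.4% of all genes. DESeq2 called 4 higher in knockout and 2 higher in wild type, and limma-voom 0 in each direction. The gene called in the main test was Chrna1, the alpha subunit of the muscle acetylcholine receptor, with 68.2, 53.7 and 63.4 CPM in WT 1 to 3 against 24.4 and 27.0 CPM in KO 1 and KO 2. Its log2 fold change was 1.27 (adjusted p = 0.0165, edgeR quasi-likelihood test), and the call was lost without WT 1, without WT 3 and without KO 1 (adjusted p of 0.0662, 0.0672 and 0.0698). Without KO 1, 9 of the 62 passed as higher in knockout: Pgam2, Eno3, Tcap, Myoz1, Ldb3, Pvalb, Ak1, Tpm2 and Mybpc2, against 0.867% of all genes; the single remaining library is there assumed to vary like the others. Without KO 2, 0 passed as higher in knockout.

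Part of these other genes shared the step in KO 2. The library was more than 2-fold above each other library for 10 of the 62, or 16.1%, against 1.41% of all genes and 0.644% of the 8539 genes with a mean of at least 10 CPM. These 10, named after their values were seen, were Pvalb, the calcium buffer parvalbumin of fast fibres; the glycolytic enzymes Eno3 and Pgam2; the adenylate kinase Ak1; Tcap, Myoz1 and Ldb3 of the Z-disc; the fast myosin-binding protein Mybpc2; Trdn, the triadin of the calcium release complex; and the light chain gene Myl4. Pvalb had 30.4, 27.9 and 22.0 CPM in wild type, 24.0 CPM in KO 1 and 149.8 CPM in KO 2, and Eno3 had 40.6, 43.7, 51.1, 52.2 and 189.0 CPM in the same order. Ldb3 had the widest gap between the libraries labelled knockout, with 0.733 CPM in KO 1 and 47.7 CPM in KO 2. Log2 ratios are differences in log2 CPM from the mean log2 CPM of WT 1 to 3. Over all 62 the median log2 ratio of KO 2 to wild type was 0.30, against 2.21 for the 9 genes and -0.01 for all genes, and the same ratio for KO 1 was -0.05, -0.21 and 0.

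Among the fibre genes in the table, the step was not seen throughout the filament. A gene present in KO 2 alone would be absent from the table, since the third-highest CPM of a gene was never under 3.02. The median log2 ratio of KO 2 to wild type was 0.82 for 10 genes of the thin and thick filament, 0.30 for 11 of the Z-disc, 0.06 for 14 of calcium handling and excitation, 0.37 for 16 of energy metabolism, -0.29 for 5 of slow fibres and -0.01 for 6 of embryonic or differentiating muscle. Myh4, the fastest myosin heavy chain, had 31.8, 15.8 and 14.0 CPM in wild type, 9.63 CPM in KO 1 and 33.4 CPM in KO 2, so that KO 2 and WT 1 were level. The titin gene Ttn had 7.54 to 12.6 CPM in wild type and 11.9 and 13.0 CPM in KO 1 and KO 2. Myh1 and Myh2, which encode other adult fast heavy chains, were not analysed here.

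The 3 most abundant genes of each list, per kilobase, gave 18 genes, and none of them passed the adjusted threshold in the main test. Tpm2, a tropomyosin, reached 182.3 CPM in KO 2 against 63.1 to 93.7 CPM in wild type, and Tpm1 reached 241.8 against 118.6 to 147.9 CPM, while Mybpc1 had 75.4 against 39.9 to 66.2 CPM. Actn3, the alpha-actinin of fast fibres, had 220.2 to 272.3 CPM in wild type, 203.8 CPM in KO 1 and 289.8 CPM in KO 2. For the other 14 most abundant genes, Flnc and Des of the Z-disc and cytoskeleton, Bin1, Chrnb1, Jsrp1, Aldoa, Gapdh, Ldha, the slow fibre genes Tpm3, Atp2a2 and Tnnt1, and Cdh15, Ncam1 and Myog, the log2 ratio of KO 2 to wild type lay between -0.54 for Des and 0.68 for Bin1. Myog, the differentiation factor myogenin, was low in KO 1 alone, with 6.39 CPM against 32.2, 45.7 and 29.99 CPM in WT 1 to 3 and 27.4 CPM in KO 2. It passed as higher in wild type with the replicate block and without KO 2. Several of them, such as Gapdh, Aldoa, Cdh15 and Des, are also expressed by muscle stem cells or by most cells.

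**Figure D3:**
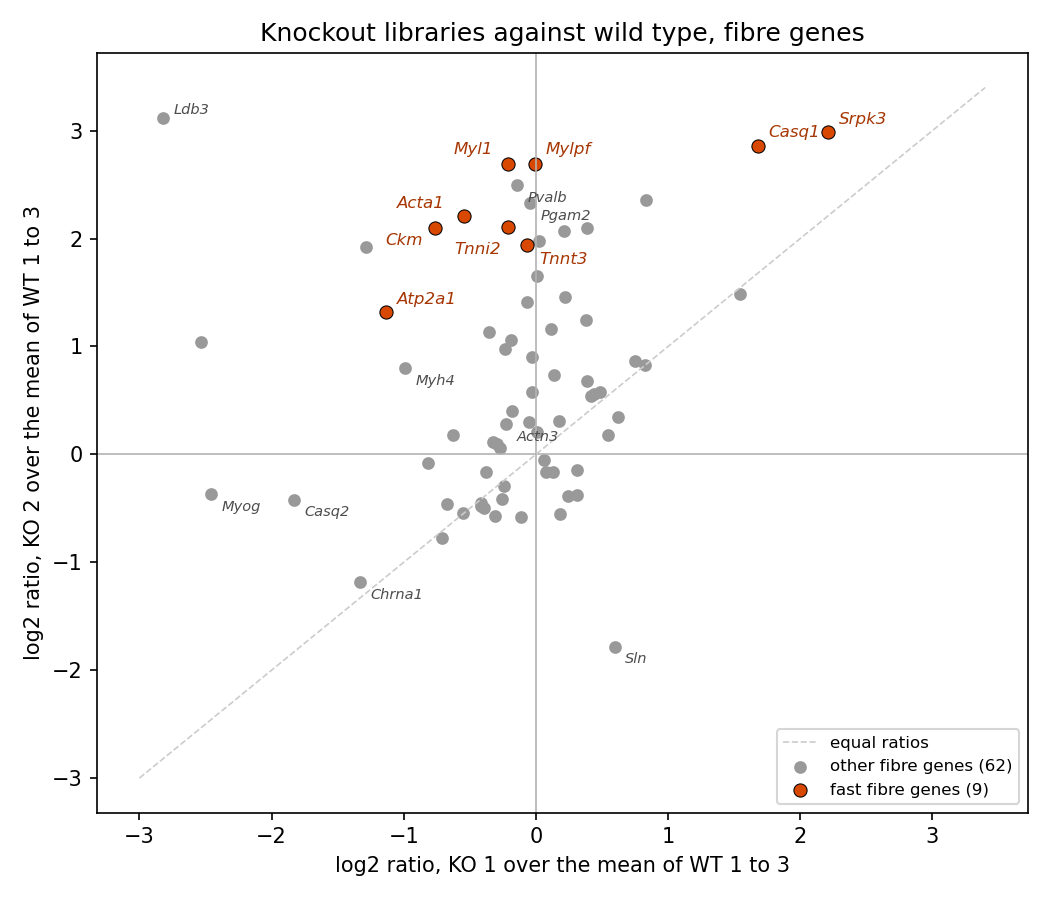
log2 ratio of KO 1 (horizontal) and KO 2 (vertical) to the mean log2 CPM of WT 1 to 3, with 1 point per gene, for the 9 fast fibre genes (orange) and 62 other fibre genes (grey); the dashed line marks equal ratios. 7 of the 9 lie high on the vertical axis with a horizontal value at or below 0, while Casq1 and Srpk3 lie to the upper right, at 1.68 and 2.21 on the horizontal axis.

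The step was also counted by gene length, in bins chosen after the values were seen. Of the 17 other fibre genes under 2000 bases, 5 were more than 2-fold above each other library in KO 2, against 2.03% of all genes of that length. The same held for 4 of 29 between 2000 and 5000 bases, against 1.33%, and for 1 of 16 longer ones, against 1.17%. The median log2 ratios of KO 2 to wild type in these bins were 1.04, 0.18 and 0.32. The set itself, chosen where KO 2 stood out, had the step in 7 of 7 genes under 2000 bases. Between 2000 and 5000 bases the set had it in 1 of 2. Across the 62 genes, Spearman's rho between length and the log2 ratio of KO 2 to wild type was -0.12. It was -0.26 with the 9 genes added and -0.03 across all 11194 genes. Genes share the libraries and are not independent replicates, and a part of length in the step was not tested.

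Genes outside the set were then ranked by likeness, measured as the root mean square difference of centred log2 CPM over the 5 libraries from the median profile of the 9. The 10 nearest were Pvalb (0.160), Pgam2 (0.185), Adssl1 (0.222), Ddit4l (0.228), Tcap (0.231), Eno3 (0.232), the gene model ENSMUSG00000044794 (0.243), Myoz1 (0.280), Lhx6 (0.282) and Zfp61 (0.284). 5 of them were in the lists of other fibre genes. Adssl1, the muscle form of adenylosuccinate synthase, had 5.77, 6.33 and 7.64 CPM in wild type, 7.85 CPM in KO 1 and 35.6 CPM in KO 2. Within the set, Tnni2, Myl1, Tnnt3, Acta1 and Mylpf lay 0.160 to 0.193 from the median profile, Ckm 0.353, Atp2a1 0.504, Casq1 0.743 and Srpk3 1.04.

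The pair with the other pattern had other neighbours. Nearest to Casq1 were Madd (0.270), Pde4a (0.308), Coro6 (0.342), Hbb-b2 (0.350) and D030028A08Rik (0.390). Nearest to Srpk3 were the gene model ENSMUSG00000082532 (0.442), 4933413J09Rik (0.457), Dnase1l2 (0.475), Rapgef3 (0.476) and Gbp9 (0.506). Madd, a regulator of small GTPases, had 4.14, 3.98 and 4.00 CPM in wild type against 14.9 and 23.2 CPM in KO 1 and KO 2. Casq1 and Srpk3 lay 0.63 from each other, and at least 0.71 from each of the other 7.

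Markers of other cells moved along with the libraries. The summed level of 10 endothelial markers was 1295 to 1746 CPM in wild type and 3112 and 2873 CPM in KO 1 and KO 2, that of 5 red blood cell genes 220.8 to 300.9 CPM in wild type and 481.9 and 824.9 CPM, and that of 12 muscle stem cell markers 5715 to 6737 CPM in wild type and 3475 and 3549 CPM. None of these markers was at 0 in either library labelled knockout, where 2 and 14 of all 11194 genes were at 0. The endothelial and stem cell sums were close in KO 1 and KO 2, where the sum of the fast fibre genes differed by 6.10 times; the red blood cell sum was highest in KO 2. Sums over 10 fibro-adipogenic markers were 2064 to 2993 CPM in wild type and 1541 and 1624 CPM in KO 1 and KO 2. Single genes of this list went both ways, with log2 ratios of KO 2 to wild type from -1.13 to 1.52. By the edgeR quasi-likelihood test, 2 were past the adjusted threshold as higher in wild type, against 1.05% of all genes. In the other direction 1 was past it, against 1% of all genes. Sums over 10 pericyte and smooth muscle markers were 2822 to 2993 CPM in wild type and 2616 and 2749 CPM in KO 1 and KO 2. That list includes Des, with 1308 to 1450 CPM in wild type and 933.1 and 942.6 CPM in KO 1 and KO 2. Its median log2 ratio of KO 2 to wild type was 0.43, so the sum and the median differed in direction. For 8 macrophage markers the sums were 256.6 to 398.6 CPM in wild type and 389.3 and 379.8 CPM in KO 1 and KO 2, without a gap. The part of these other cells in the levels of the fast fibre genes was not tested.

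**Figure D4:**
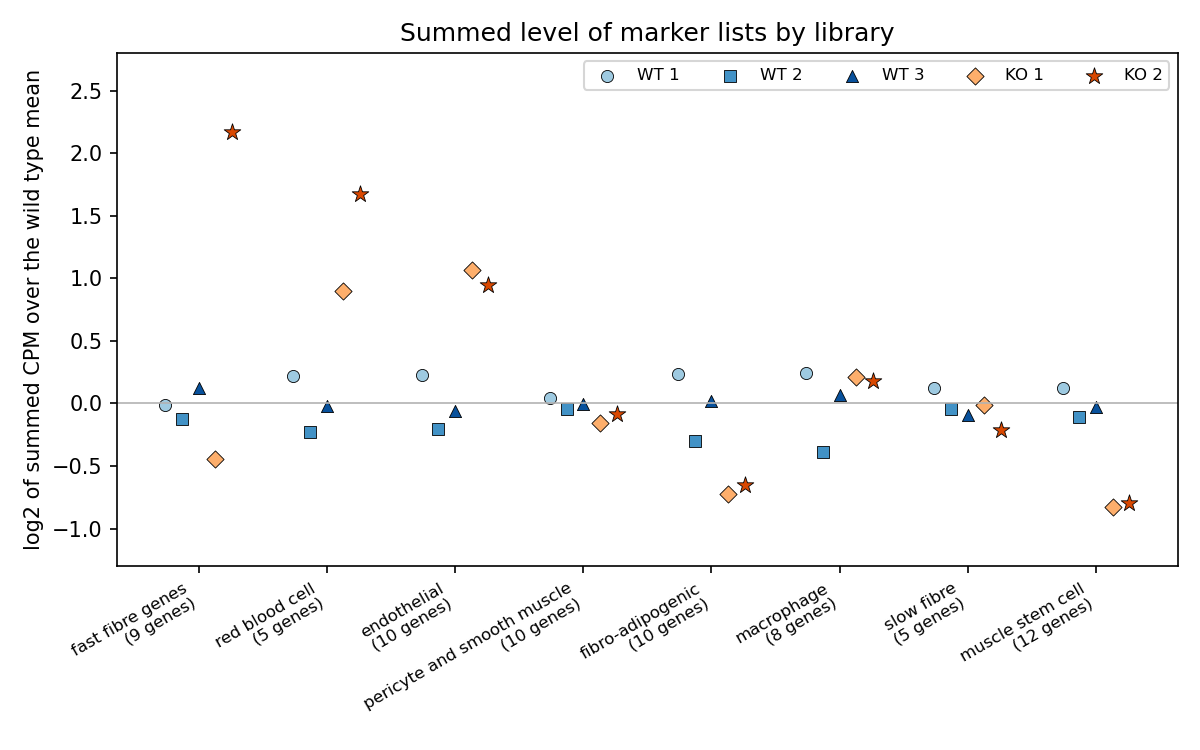
Summed CPM of each marker list in each library, as log2 over the mean of WT 1 to 3, with 1 point per library and symbols as in the legend. KO 2 stands alone for the fast fibre genes, at 2557 against 568.7 CPM, while KO 1 and KO 2 lie together above wild type for endothelial markers and below it for muscle stem cell markers.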

How the data were processed

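The table deposited for the series gives, for each gene, unnormalized counts with one column per library, with exon length in bases, gene coordinates and symbols. The build was mm10 and the tools were STAR, Trim Galore, edgeR and Subread's featureCounts, per the submitters' processing notes. No version, annotation release or strand setting was stated there. Priming was by oligo(dT) and libraries were amplified, per the labels' protocols. The authors had filtered the table: the third-highest CPM of a gene was never under 3.02.

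The deposited counts went unchanged into edgeR 4.0.16 under R 4.3.3 (filterByExpr, which removed no gene, TMM scaling, glmQLFit, glmQLFTest on genotype, two-sided, Benjamini-Hochberg adjustment over 11194 genes, threshold 0.05), after the script was tested on simulated data. Log2 CPM used a prior count of 2. Symbols were updated through RefSeq by Entrez identifier, and overlaps read from the same table. DESeq2 1.42.0 and limma 3.58.1 were alternatives, beside other scalings and filters, thinning and leaving out each library. Libraries of the same group all differed beyond counting noise (chi-square per degree of freedom of 17.7 or more). The labels name no separate animals, so p-values reflect the spread among these libraries alone, which may be technical.

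The genes and lists were chosen with earlier results of these data known. The text names all 9 genes of the set, the 3 genes of highest level per kilobase in each of the 6 other fibre lists, those past the threshold, and the genes nearest in profile.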

Additional observations from a re-analysis of the deposited data

How the results depend on the processing

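The median log2 fold change of the 9 genes (wild type over knockout), -1.40, kept its direction with other scalings, without a filter, after thinning, with DESeq2 and with limma-voom, between -1.44 and -0.66. With each library left out in turn it ran from -2.20 to 0.21; it turned without KO 2, where Acta1 was at 0.55, Ckm at 0.81, Myl1 at 0.21, Mylpf at 0.01, Tnnt3 at 0.07, Tnni2 at 0.22 and Atp2a1 at 1.14. Without KO 1 they were at -2.20, -2.05, -2.69, -2.69, -1.94, -2.10 and -1.31 in the same order. Atp2a1 was at 0.37 with limma-voom. The filter on a mean CPM of 10 or more removed Srpk3, so no median was taken there. KO 2 was the highest library for 9 of 9 genes under each scaling, prior count and thinning, and the 10 other fibre genes over 2-fold above each other library stayed 10 in number, a check chosen after seeing the data.

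The count of other fibre genes higher in knockout, 0, was 1 with the filter on mean CPM, 2 after thinning, 4 with DESeq2 and 0 to 9 with a library left out; the count higher in wild type, 1, was 2 with DESeq2, 0 with limma-voom and 0 to 2 with a library left out. Over all genes, 112 passed towards knockout and 118 towards wild type; the counts were 457 and 433 with DESeq2, 14 and 8 with limma-voom, 23 to 172 and 11 to 176 with a library left out. The cause of these shifts was not tested. Total counts in place of TMM gave 143 and 93.

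WT and knockout libraries share the replicate numbers 1 and 2, but same-numbered libraries did not deviate together (correlations of 0.05 and 0.04 across genes). With the replicate number as a block, 324 genes passed towards knockout and 288 towards wild type, 5 and 2 of them other fibre genes, and the median of the 9 genes was -0.91. Depth limits KO 2 most: 522 genes there had under 10 counts, and a count of 0 allows up to 0.970 CPM.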
